A study of Mus musculus with 6 samples.

Results

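The genes described here were 10 genes of antigen presentation by major histocompatibility complex (MHC) class II molecules and of Langerhans cells, taken as a named list from the 26579 genes of a mouse skin RNA-Seq count table. They were the class II chains *H2-Aa*, *H2-Ab1* and *H2-Eb1*, the invariant chain *Cd74*, the peptide-loading chaperone genes *H2-DMa* and *H2-DMb1*, the master regulator *Ciita*, and the Langerhans cell and dendritic cell genes *Cd207*, *Itgax* and *Epcam*. All 10 genes had counts in every library and passed the filter on low counts, which asked for 1 or more CPM (counts scaled to library size) in 3 or more libraries and kept 15102 genes.

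The libraries came from punch biopsies of whole dorsal neck skin of female mice on postnatal day 33 (P33). One group was 3 YAP2-5SA-∆C transgenic mice with early onset of the visible skin phenotype, and the other was 3 wild type littermates. The transgene encodes a mildly dominant-active mutant of the transcriptional co-activator YAP and is expressed in basal keratinocytes of the epidermis. The strain background was not given in the sources used here. The comparison asked how RNA levels of these genes differed between skin with and without the epidermal YAP mutant.

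MHC class II molecules are pairs of an alpha and a beta chain that carry peptides from the endosomal pathway to the cell surface, where CD4+ T cells read them. The invariant chain guards the peptide groove until cathepsins degrade it, and H2-DM then exchanges its last fragment for antigen peptides. CIITA is the co-activator that switches on this set of genes together by docking on factors bound to the shared X and Y boxes of their promoters. In the epidermis, class II molecules are carried at rest mainly by Langerhans cells, the resident antigen-presenting cells marked by Langerin (*Cd207*) and also by EpCAM, while dermal macrophages and dendritic cells carry them below.

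Total counts ran from 11225705 to 19505036 per library, and the shallowest library was wild type replicate 3. YAP2-5SA-∆C replicate 2 stood apart from the other transgenic libraries in its hair follicle genes, whose summed level was 1446 CPM there, 6734 and 8513 CPM in YAP2-5SA-∆C replicates 1 and 3, and 12537 to 15165 CPM in wild type. The skin origin of the libraries showed in keratinocyte markers at a summed 7360.3 to 16089.8 CPM, and skeletal muscle and fat markers varied widely within the groups, at 1282 to 5822 CPM in wild type and 1275 to 2873 CPM in YAP2-5SA-∆C skin. Mouse *Yap1* stood at 125 to 142 CPM in wild type and 129.6 to 144 CPM in transgenic libraries (log2 fold change 0.06, SE 0.07, quasi-likelihood FDR 0.635), and whether transgene reads were counted on it is not known, so this gene does not check the labels.

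Of the 10 genes, 3 were called higher in YAP2-5SA-∆C skin and none lower by the quasi-likelihood test of edgeR (false discovery rate, FDR, threshold 0.05). These were *Itgax*, *H2-Aa* and *Cd74*. In bulk skin, more cells of a type cannot be told apart from more RNA per cell. Among all tested genes, 1.44% were called higher and 0.464% lower, so 3 of 10 was above the background share. In 8 of the 10 genes all 3 transgenic libraries lay above all 3 wild type libraries, against 15.5% of all tested genes that did so and 18.2% that lay fully below; the exceptions were *H2-DMb1* and *Epcam*. The median log2 fold change of the 10 genes was 0.62 and that of all tested genes was -0.01. A further 5 genes had an FDR between 0.05 and 0.1, for which no share of all tested genes was computed. The edgeR likelihood-ratio test, which allows less for uncertainty in the dispersion, called 8 of the 10 higher against 5.52% of all tested genes. The calls did not hold in every fit without 1 library: leaving out wild type replicate 2, wild type replicate 3, YAP2-5SA-∆C replicate 1 or YAP2-5SA-∆C replicate 3 left 0 of the 10 called, leaving out wild type replicate 1 left 2 (*H2-Aa* and *Cd74*), and leaving out YAP2-5SA-∆C replicate 2 gave 4, with *H2-Eb1* added. In those 6 fits 8 to 9 of the 10 genes had an unadjusted quasi-likelihood p below 0.05, beside 2725 to 3841 of the 14914 to 14999 genes tested. Of the 10 genes only *Epcam* changed sign in them.

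**Figure D1:**
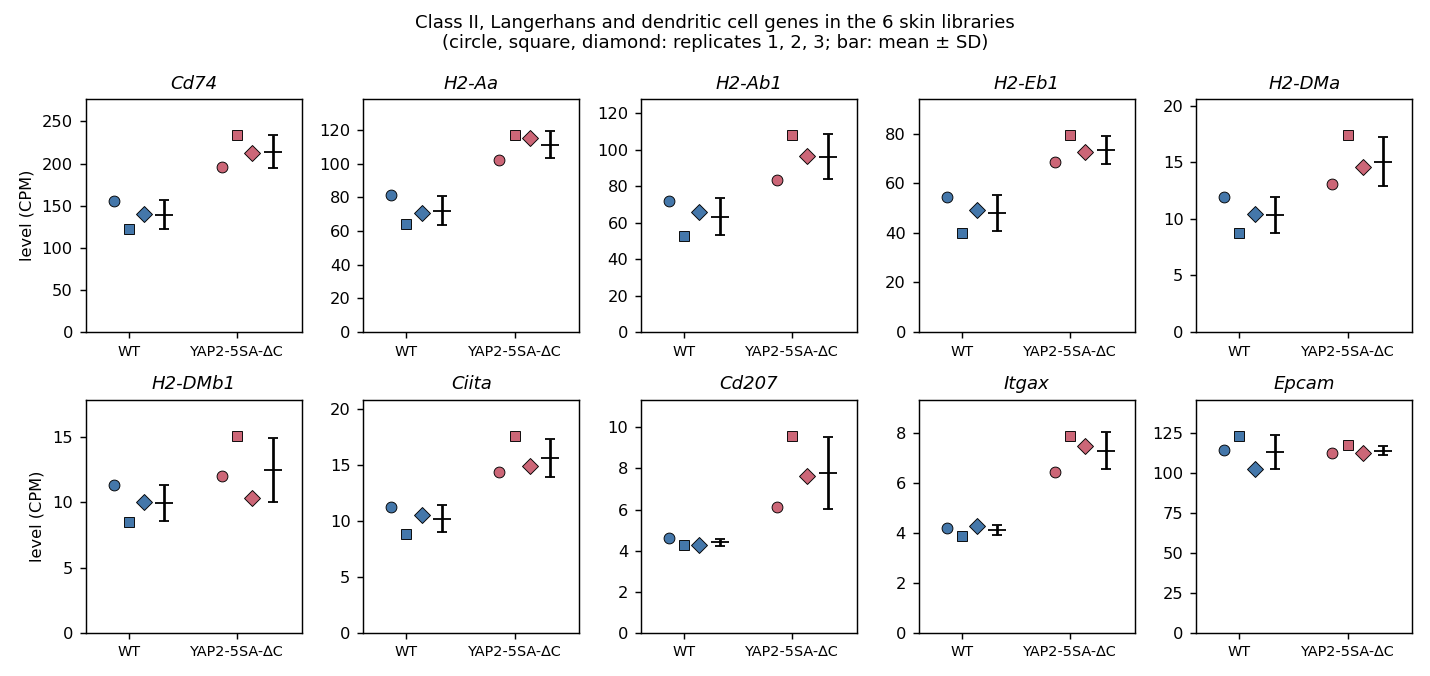
Levels of the 10 genes in each library in CPM, each gene in its own panel on a linear axis, with 3 wild type and 3 YAP2-5SA-∆C points per gene and a bar at each group mean ± SD. The transgenic points sit above the wild type points without overlap in 8 genes, and the groups overlap in *H2-DMb1* and *Epcam*.

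*Cd74* (ENSMUSG00000024610, chr18:60803848-60812652 in GRCm38, forward strand) encodes the invariant chain and had the highest level per transcript length of the 10 genes in both groups. Its level was 156, 122 and 140 CPM in wild type replicates 1 to 3 and 196, 234 and 213 CPM in YAP2-5SA-∆C replicates 1 to 3. The lowest transgenic library was therefore above the highest wild type library. Group means of 139 ± 16.9 and 215 ± 18.9 CPM (SD over 3 libraries each) corresponded to a log2 fold change of 0.62 (SE 0.11, 95% interval 0.37 to 0.87, quasi-likelihood FDR 0.0437). Leaving out 1 library at a time gave log2 fold changes of 0.54 to 0.72 and FDRs of 0.0269 to 0.178, the highest without wild type replicate 2. The microRNA gene *Mir5107* overlaps an exon of *Cd74*.

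*H2-Aa* (ENSMUSG00000036594, chr17:34282744-34287823, reverse strand) encodes the alpha chain of the I-A molecule. It stood at 81.1, 64.4 and 70.6 CPM in the wild type libraries and at 102, 117 and 115 CPM in the YAP2-5SA-∆C libraries. Again no library of one group reached into the range of the other, and the means of 72.0 ± 8.45 and 111 ± 8.61 CPM (SD, n = 3 each) gave a log2 fold change of 0.63 (SE 0.10, 95% interval 0.39 to 0.87, quasi-likelihood FDR 0.042).

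*H2-Ab1* (ENSMUSG00000073421, chr17:34257689-34269419, forward strand) encodes the beta chain that pairs with H2-Aa. Its wild type libraries stood at 71.9, 52.5 and 65.5 CPM and its transgenic libraries at 83.5, 108 and 96.5 CPM. The groups did not overlap, but the libraries of each group were more widely spread than for its partner. Means of 63.3 ± 9.86 and 96.1 ± 12.5 CPM (SD over 3 libraries each) gave a log2 fold change of 0.60 (SE 0.14, 95% interval 0.28 to 0.93), which did not pass the quasi-likelihood test (FDR 0.0622). The log2 ratio of *H2-Aa* to *H2-Ab1* counts was 0.19 ± 0.09 in wild type and 0.22 ± 0.09 in transgenic libraries, a difference of 0.02 with overlapping groups, and that of *Cd74* to *H2-Ab1* was 1.14 ± 0.07 and 1.16 ± 0.06, also a difference of 0.02 with overlap. The chains of the I-A molecule and their invariant chain were thus in nearly the same count ratio in all 6 libraries.

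*H2-Eb1* (ENSMUSG00000060586, chr17:34305867-34316674, forward strand) encodes the beta chain of the I-E molecule. It measured 54.6, 40.0 and 49.4 CPM in wild type and 68.4, 79.5 and 72.8 CPM in YAP2-5SA-∆C libraries, with no overlap. At a log2 fold change of 0.62 (SE 0.12, 95% interval 0.33 to 0.90) it fell just short of the threshold (quasi-likelihood FDR 0.0526), and its FDR was 0.0496 with size factors computed by the relative log expression method. The partner alpha chain locus *H2-Ea-ps* was not analysed here, so no alpha to beta comparison was made for I-E.

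To show the promoter elements through which class II genes are switched on together, 80 bases of 3 promoters are printed from 110 to 31 bases before the RefSeq transcript start (GRCm38.p6, gene strand, 5′ to 3′). *H2-Aa* (chr17:34287854-34287933, reverse strand) and *H2-Eb1* (chr17:34305757-34305836, forward strand) are chain genes whose libraries did not overlap between groups, and *H2-DMb1* (chr17:34153081-34153160, forward strand) is the class II gene whose libraries did. Capitals mark matches on the printed strand to the Y box CTGATTGG or its core ATTGG and to an X box core AGNNACNGA; the core on the other strand, as at the end of the *H2-Eb1* stretch, is left in lower case.
H2-Aa: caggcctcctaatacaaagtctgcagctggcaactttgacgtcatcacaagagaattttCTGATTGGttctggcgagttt
H2-Eb1: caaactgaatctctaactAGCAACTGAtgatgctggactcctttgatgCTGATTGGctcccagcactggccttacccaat
H2-DMb1: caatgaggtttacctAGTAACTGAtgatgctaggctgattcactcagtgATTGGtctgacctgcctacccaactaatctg

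The core of the Y box began 48 bases before the start in *H2-Aa*, 59 in *H2-Eb1* and 61 in *H2-DMb1*. The *H2-DMb1* gene as annotated below begins at 34153072, so its printed stretch lies inside that annotation and its distance depends on the start used. For *H2-Aa* and *H2-Eb1* the stretch lies outside the annotated gene. The X box core preceded it by 33 bases in *H2-Eb1* and by 34 bases in *H2-DMb1*, counted from first base to first base, and had no match in the *H2-Aa* window. Searched on both strands over 32851 promoter windows running from 250 bases before to 50 bases after the start, the full Y box was held by 4.1%, its core, which lies inside it, by 37.4%, and the X box core by 17.7%, so the short motifs are common and a match is a description of the letters only. Promoter windows were matched for 7 of the 10 genes, which leaves out *H2-Ab1*, *Cd74* and *Ciita*. *H2-Eb1*, with groups that did not overlap, and *H2-DMb1*, with groups that did, held the X box core and the Y box core at nearly the same spacing. The full Y box had a match in *H2-Eb1* and none in *H2-DMb1*. Among the other genes searched it matched in *H2-Aa*, without overlap, and in *H2-Oa* and *H2-Eb2*, with overlap. It had no match in *H2-DMa*, *Cd207*, *Itgax* and *H2-Ob*, without overlap, or in *Epcam* and *H2-DMb2*, with overlap. *H2-Oa*, *H2-Ob* and *H2-Eb2* had few counts. A link between motif and group difference was not tested.

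*H2-DMa* (ENSMUSG00000037649, chr17:34119541-34139101, forward strand) encodes the alpha chain of the H2-DM chaperone. Its level was 11.9, 8.74 and 10.4 CPM in wild type and 13.1, 17.4 and 14.6 CPM in YAP2-5SA-∆C skin, without overlap. The log2 fold change of 0.54 (SE 0.15, 95% interval 0.17 to 0.90) did not pass the quasi-likelihood test (FDR 0.0886). An exon of *H2-DMa* overlaps one of *Brd2* on the opposite strand, and since the strand setting of the counting was not given, reads of the overlap cannot be assigned with certainty.

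*H2-DMb1* (ENSMUSG00000079547, chr17:34153072-34160230, forward strand) encodes an H2-DM beta chain. It stood at 11.3, 8.53 and 9.99 CPM in wild type and at 12.0, 15.1 and 10.3 CPM in YAP2-5SA-∆C libraries, where replicate 3 fell inside the wild type range. The log2 fold change was 0.33 (SE 0.17, 95% interval -0.07 to 0.73, quasi-likelihood FDR 0.267), and the interval still includes the values of the other class II genes. Of its 75-base transcript windows, 254 of 1330 (19.1%) also occur in *H2-DMb2*, which adds uncertainty because only uniquely placed reads were counted. *H2-DMb2*, the second DM beta chain gene, was at 5.13 ± 0.671 CPM in wild type and 5.82 ± 0.992 CPM in transgenic skin (log2 fold change 0.19, SE 0.17, quasi-likelihood FDR 0.516). The log2 ratio of *H2-DMa* to *H2-DMb1* counts was 0.06 ± 0.02 in wild type and 0.28 ± 0.20 in transgenic libraries, a difference of 0.22 without overlap between groups but with one transgenic library at 0.50 and the others at 0.13 and 0.20.

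*Ciita* (ENSMUSG00000022504, chr16:10480059-10528418, forward strand), the class II transactivator, was measured at 11.2, 8.84 and 10.5 CPM in wild type and at 14.4, 17.6 and 14.9 CPM in YAP2-5SA-∆C skin. The groups did not overlap, and the means were 10.2 ± 1.21 and 15.6 ± 1.71 CPM (SD over 3 libraries each). A log2 fold change of 0.62 (SE 0.13, 95% interval 0.32 to 0.92) was the size of that of *Cd74* and *H2-Eb1* but missed the threshold (quasi-likelihood FDR 0.0547). An exon of *Ciita* overlaps one of *Dexi* on the opposite strand. The factors on which CIITA docks, the RFX subunits, the NF-Y subunits and CREB1, were not called: 0 of 7 passed the quasi-likelihood test, 0 had an unadjusted p below 0.05, and 0 were called by the likelihood-ratio test, voom or DESeq2, with a median log2 fold change of -0.03; *Rfxap* and *Creb1* lay fully below wild type and none lay fully above. The lowest p among them in each direction belonged to *Creb1* (log2 fold change -0.12, SE 0.06, FDR 0.22) and *Nfyb* (0.07, SE 0.10, FDR 0.686).

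*Cd207* (ENSMUSG00000034783, chr6:83671215-83677857, reverse strand) encodes Langerin, the lectin of Birbeck granules that defines Langerhans cells and a subset of dermal dendritic cells. It was measured by 84, 82 and 45 counts in wild type and by 110, 163 and 122 counts in YAP2-5SA-∆C libraries, or 4.62, 4.29 and 4.28 CPM against 6.12, 9.59 and 7.61 CPM. Wild type libraries were nearly equal, and the transgenic libraries were all higher but spread more. A log2 fold change of 0.82 (SE 0.18, 95% interval 0.40 to 1.24) did not pass the quasi-likelihood test (FDR 0.0596), with 0.66 to 0.99 when 1 library was left out.

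*Itgax* (ENSMUSG00000030789, chr7:128129547-128150657, forward strand) encodes the integrin CD11c of dendritic cells, Langerhans cells and some macrophages. It had 76, 74 and 45 counts in wild type and 116, 134 and 120 counts in YAP2-5SA-∆C libraries, which were 4.18, 3.87 and 4.28 CPM against 6.45, 7.88 and 7.49 CPM. The groups were well apart, with means of 4.11 ± 0.212 and 7.27 ± 0.74 CPM (SD over 3 libraries each). Its log2 fold change of 0.82 (SE 0.13, 95% interval 0.53 to 1.12, quasi-likelihood FDR 0.0401) had the lowest FDR of the 10 genes and was 0.78 to 0.92 without 1 library. Of its 75-base windows, 240 of 3972 (6.04%) also occur in *Itgad*.

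*Epcam* (ENSMUSG00000045394, chr17:87635979-87651129, forward strand) encodes an adhesion molecule of Langerhans cells that epithelial cells of the hair follicle and glands also make. Its level was 114, 123 and 102 CPM in wild type and 112, 117 and 112 CPM in YAP2-5SA-∆C skin. The groups overlapped, and the log2 fold change was 0.01 (SE 0.08, 95% interval -0.18 to 0.19, quasi-likelihood FDR 0.965). Without wild type replicate 3 it was -0.05 (FDR 0.688). Per kilobase of coding transcript, the wild type level of *Epcam* was 55.5 CPM and that of *Cd207* was 2.89 CPM, and the share of *Epcam* RNA that came from Langerhans cells was not measured. The log2 ratio of *Epcam* to *Krt14*, a basal keratin gene, went from -3.87 ± 0.13 to -4.80 ± 0.12 without overlap, as *Krt14* rose from 1648 ± 19.6 to 3187 ± 300.2 CPM (log2 fold change 0.95, SE 0.11, quasi-likelihood FDR 0.03). Against *Krt19*, a simple epithelial and follicle keratin gene at 1.64 ± 0.50 CPM in wild type and 0.885 ± 0.214 CPM in transgenic skin, the log2 ratio went the other way, from 6.15 ± 0.54 to 7.04 ± 0.40, also without overlap.

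**Figure D2:**
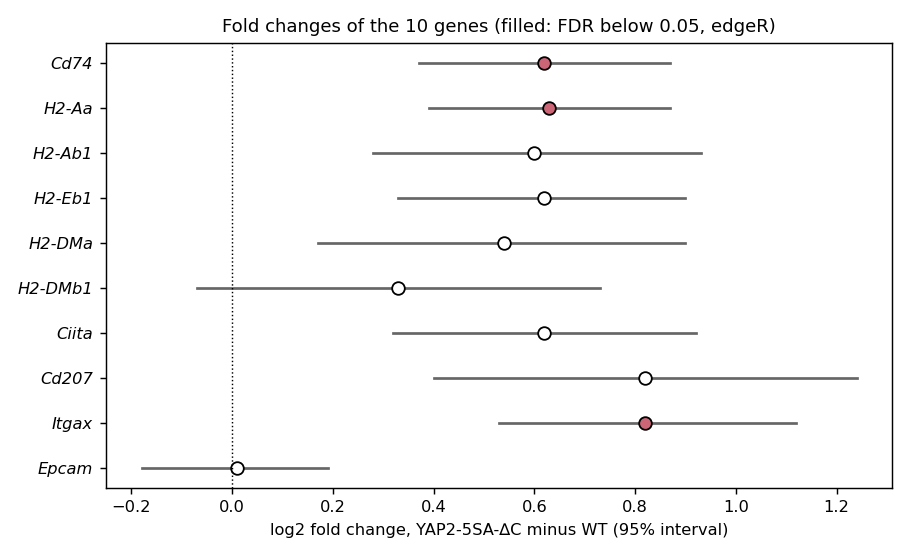
Log2 fold change of YAP2-5SA-∆C over wild type for the 10 genes, with bars for the 95% interval of the quasi-likelihood fit and called genes marked. Values run from 0.01 for *Epcam* to 0.82 for *Cd207* and *Itgax*, and only the intervals of *Epcam* and *H2-DMb1* cross 0.

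The genes were ranked by their mean CPM per kilobase of the longest coding transcript. In wild type *Cd74* was at 98.9 CPM per kilobase, followed by *H2-Aa* at 63.9, *Epcam* at 55.5, *H2-Ab1* at 52.2, *H2-Eb1* at 28.8, *H2-DMb1* at 7.07, *H2-DMa* at 5.16, *Cd207* at 2.89, *Ciita* at 1.69 and *Itgax* at 1.02. The ranges of *H2-Aa* (57.1 to 71.9), *Epcam* (50.1 to 60.4) and *H2-Ab1* (43.4 to 59.3) overlapped between libraries. Within each library, however, *H2-Aa* stood above *H2-Ab1* on this scale. The log2 ratio of their counts was 0.11 to 0.29 in wild type and 0.11 to 0.28 in transgenic libraries, and the *H2-Aa* transcript is shorter (1128 against 1212 bases). The place of *Epcam* was not compared within libraries. In YAP2-5SA-∆C skin the order was the same except that *H2-Ab1* (79.3) stood above *Epcam* (55.8), with *Cd74* at 152 and *H2-Aa* at 98.7 CPM per kilobase, and the ranges of *H2-DMb1* (7.33 to 10.7) and *H2-DMa* (6.52 to 8.66) overlapped. The order among *H2-Aa*, *H2-Ab1*, *H2-Eb1* and *Epcam* depended on the transcript length used and was different with the union of all annotated exons, which in transgenic skin also placed *Cd207* above *H2-DMa*.

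Libraries of the same group also differed in a shared way. Among wild type libraries 8 of the 10 genes were highest in replicate 1 and 8 were lowest in replicate 2, and among transgenic libraries all 10 were highest in replicate 2 and 9 were lowest in replicate 1. YAP2-5SA-∆C replicate 2 is the library with the low hair follicle level, and the part of that difference in its class II levels was not tested.

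Leukocyte genes were also higher in YAP2-5SA-∆C skin. Of 10 pan-leukocyte markers 8 were called higher in the quasi-likelihood test, with a median log2 fold change of 0.65 and all 10 without overlap, and their summed level was 219.5 to 239.7 CPM in wild type and 353 to 379 CPM in YAP2-5SA-∆C libraries. *Ptprc*, which encodes the leukocyte antigen CD45, rose from 39.2 ± 3.27 to 61.7 ± 4.44 CPM (log2 fold change 0.65, SE 0.09, FDR 0.034). Within the groups it did not follow the shared order of the 10 genes: it was 38.3, 36.5 and 42.8 CPM in wild type, highest in replicate 3, and 60.8, 57.7 and 66.5 CPM in transgenic libraries, lowest in replicate 2. The other markers called higher were *Laptm5*, *Coro1a*, *Cd53*, *Arhgdib*, *Itgb2*, *Lcp1* and *Tyrobp*, with log2 fold changes of 0.61 to 0.81, while *Cd52* (FDR 0.0576) and *Fcer1g* (FDR 0.0608) did not pass. Of the 10 markers, 0 to 8 were called when 1 library was left out, with 0 in the fits that called no gene at all, in which the omitted library was replicate 2 or 3 of wild type or replicate 3 of YAP2-5SA-∆C.

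Set against *Ptprc* in the same library, *Cd74*, *H2-Aa*, *H2-Ab1*, *H2-Eb1* and *Ciita* were at nearly the same ratio in both groups. The log2 ratio of *Cd74* to *Ptprc* counts was 2.03, 1.75 and 1.71 in wild type and 1.69, 2.02 and 1.68 in YAP2-5SA-∆C libraries, a difference of -0.03 between means. For *H2-Aa*, *H2-Ab1*, *H2-Eb1* and *Ciita* the differences were -0.02, -0.05, -0.03 and -0.03. *Cd207* and *Itgax* were slightly higher relative to *Ptprc*, by 0.14 and 0.16, but the groups overlapped for all 7 ratios. The levels of *Cd74*, the class II chain genes and *Ciita* therefore differed between groups by about as much as that of *Ptprc*, the ratio was not computed for *H2-DMa*, *H2-DMb1* and *Epcam*, and the part of leukocyte content in these differences was not tested beyond the ratios.

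**Figure D3:**
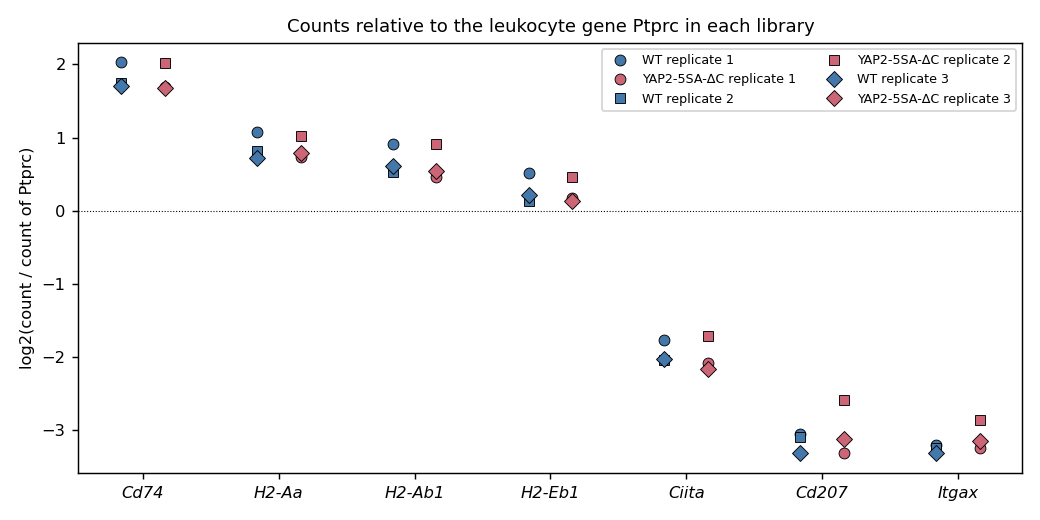
Log2 ratio of the counts of 7 genes to those of *Ptprc* in each library, with wild type and YAP2-5SA-∆C points side by side. The groups overlap for every gene, with differences between means from -0.05 for *H2-Ab1* to 0.16 for *Itgax*.

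Markers of particular leukocytes were less uniform. Of 13 macrophage markers, 12 lay fully above wild type and 1 fully below, with a median log2 fold change of 0.53 and a summed level of 554 to 667 CPM against 811 to 881 CPM. Of these, 1 was called, *Mrc1*, the mannose receptor gene, which rose from 158 ± 6.37 to 230.2 ± 16.7 CPM (log2 fold change 0.54, SE 0.07, FDR 0.0341), while *Mertk*, a phagocytic receptor gene, had a log2 fold change of -0.16 (FDR 0.291). B cells also carry class II molecules. Of 8 B cell markers, 4 lay fully above wild type and 0 fully below, and those 4 were too low to be tested. Among them was *Ms4a1*, which encodes CD20, with 0 counts in every wild type library and 2, 1 and 3 in transgenic libraries. The single B cell marker tested, *Blnk*, which macrophages also express, was at 23.4 ± 1.57 CPM in wild type and 25.4 ± 3.47 CPM in transgenic skin (log2 fold change 0.12, FDR 0.541). Of 6 T cell markers tested, 0 were called by the quasi-likelihood test, the likelihood-ratio test, voom or DESeq2 and 0 had an unadjusted p below 0.05, with *Cd4* at 0.47 (FDR 0.218), *Lck* at -0.08 (FDR 0.865) and a summed level of 61.4 to 92.6 CPM in wild type and 87.9 to 130.1 CPM in YAP2-5SA-∆C libraries. Most of that sum was *Thy1*, which other skin cells also express, at 48.8 to 77.4 CPM in wild type and 73.7 to 113 CPM in transgenic libraries.

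Few markers of the non-leukocyte lists were called. Of 9 keratinocyte markers tested 1 was called higher, *Krt14*, with a median log2 fold change of 0.56. All 11 tested hair follicle markers lay fully below wild type, with a median log2 fold change of -1.27, yet 0 were called by the quasi-likelihood test, which gave 10 an unadjusted p below 0.05, or by voom, while the likelihood-ratio test called 10 and DESeq2 3 of them lower, and the quasi-likelihood test called 10 when YAP2-5SA-∆C replicate 2 was left out; the lowest FDR was that of *Foxn1*, a transcription factor gene of hair and nail keratinocytes (log2 fold change -1.11, FDR 0.0619). Of 7 dermis markers, 0 were called by the quasi-likelihood test, the likelihood-ratio test or voom and 2 were called higher by DESeq2, with 3 at an unadjusted p below 0.05 and a median of 0.25, led by *Lum* (0.29, FDR 0.0935). Of 9 simple epithelium and gland markers, which are relevant to *Epcam*, 1 was called lower, the keratin gene *Krt8* (3.35 ± 0.620 to 0.875 ± 0.404 CPM, log2 fold change -1.92, FDR 0.0456, with 0.0525 by voom), and the median was -0.85. None of 8 muscle and fat markers was called by any of the 4 tests or had an unadjusted p below 0.05, with *Myh4* at -1.19 (FDR 0.27) and *Plin1* at 0.23 (FDR 0.292).

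**Figure D4:**
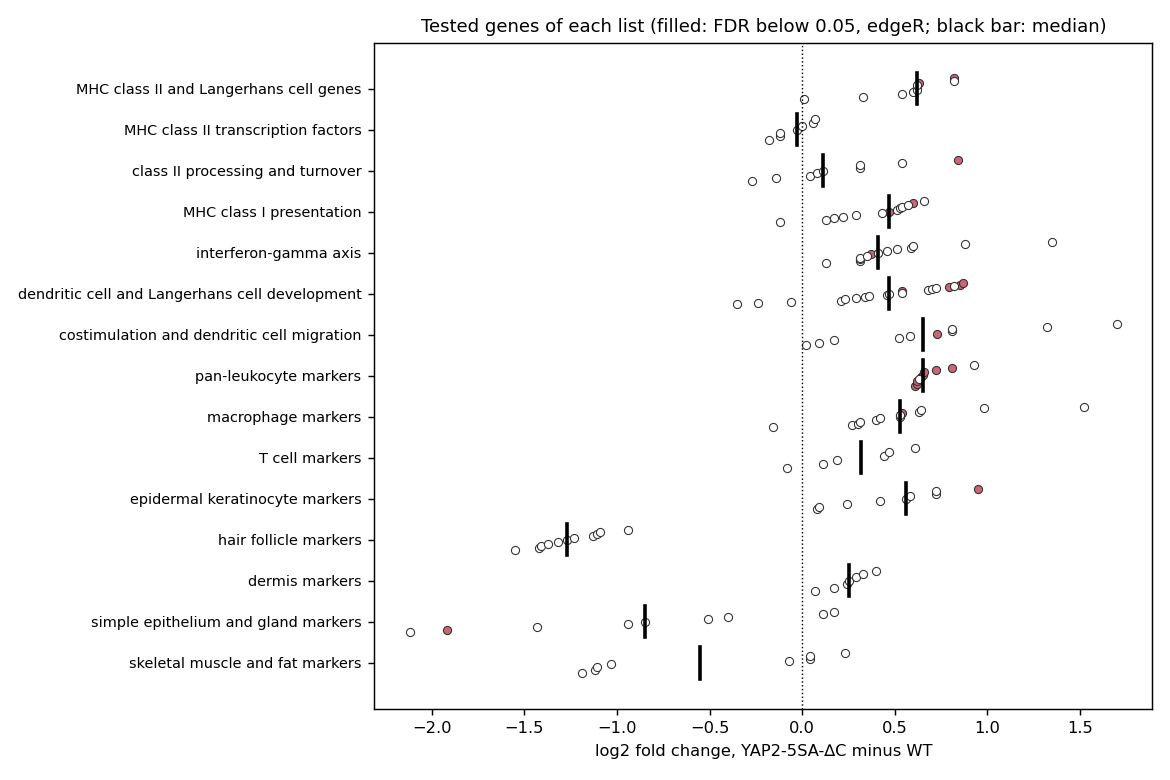
Log2 fold changes of the tested genes of each gene list, one point per gene with called genes marked and a line at each list's median. The class II and Langerhans cell genes have a median of 0.62, next to 0.65 for pan-leukocyte markers, -0.03 for class II transcription factors and -1.27 for hair follicle markers.

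Among genes that act on class II molecules after synthesis, 1 of 9 was called higher. This was *Ctss*, which encodes cathepsin S, the protease that removes the invariant chain in antigen-presenting cells. Its level was 41.2, 40.6 and 40.0 CPM in wild type and 75.8, 68.2 and 74.5 CPM in YAP2-5SA-∆C libraries (log2 fold change 0.84, SE 0.06, FDR 0.0101). The wild type libraries were nearly identical and the transgenic ones far above them, but the FDR was 0.10 at its highest when 1 library was left out. The median of the list was 0.11, and *Ctsb*, a broadly expressed lysosomal protease gene, had a log2 fold change of -0.27 (FDR 0.265). Of the remaining class II locus genes, *H2-Ob*, which encodes a chain of the DM inhibitor H2-DO, was too low to be tested and had 8, 6 and 7 counts in wild type and 20, 17 and 18 in transgenic libraries, while *H2-Oa* had 1 to 8 and *H2-Eb2* 1 to 6 counts in any library.

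MHC class I presentation, which serves all nucleated cells, showed 2 of 13 genes called higher and 10 of 13 without overlap, with a median log2 fold change of 0.47. The called genes were *Tap2*, a subunit of the peptide transporter (15.3 ± 0.788 to 21.2 ± 1.48 CPM, log2 fold change 0.47, SE 0.09, FDR 0.0485, with 0.0528 by voom), and *Psmb8*, a subunit of the immunoproteasome (11.7 ± 0.201 to 17.8 ± 1.77 CPM, log2 fold change 0.60, SE 0.10, FDR 0.042). *Calr*, a chaperone gene of the endoplasmic reticulum, had a log2 fold change of -0.12 (FDR 0.356). Interferon-gamma is the classical inducer of *Ciita*, and the 13 tested genes of its axis had a median log2 fold change of 0.41, with 7 of 13 without overlap. *Ifng* itself had 1, 1 and 0 counts in wild type and 3, 0 and 0 in YAP2-5SA-∆C libraries, so a difference in the cytokine was not detectable at this depth.

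Genes of dendritic cell and Langerhans cell development were called higher in 4 of 19 cases, with a median log2 fold change of 0.47 and 12 of 19 without overlap. *Csf1r*, the receptor through which interleukin-34 and CSF-1 sustain Langerhans cells and macrophages, rose from 73.9 ± 9.01 to 107 ± 5.05 CPM (log2 fold change 0.54, SE 0.09, FDR 0.0456). *Csf2rb*, a shared chain of the GM-CSF receptor, rose from 15.8 ± 1.14 to 27.4 ± 3.40 CPM (0.79, SE 0.11, FDR 0.0375), and *Spi1*, the myeloid transcription factor PU.1, from 6.15 ± 1.10 to 11 ± 0.766 CPM (0.85, SE 0.14, FDR 0.0437). *Cd24a*, which keratinocytes also express, rose from 97.1 ± 3.13 to 177 ± 25.5 CPM (0.87, SE 0.11, FDR 0.03). *Id2*, a transcriptional inhibitor needed for Langerhans cells and made by many skin cells, had a log2 fold change of -0.35 (FDR 0.139).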

How the data were processed

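RNA from the 6 biopsies was sequenced as paired-end reads. Per the study's methods and the labels, the authors used TopHat2, calling Bowtie2, for alignment (GRCm38) and deposited whole-number counts of uniquely mapped reads per gene from HTSeq; the annotation release and strand setting are not given in the sources used here, nor is the handling of duplicates. The labels name a total RNA kit and the methods describe mRNA libraries. Counts were filtered (at least 1 CPM in at least 3 libraries), scaled by TMM and tested for genotype with the quasi-likelihood test of edgeR 4.0.16 in R 4.3.3, with Benjamini-Hochberg adjustment over 15102 genes. CPM used kept-gene library sizes times TMM factors. Alternatives were other scalings and filters, the likelihood-ratio test, voom in limma 3.58.1, DESeq2 1.42.0, a block for replicate number and fits without each library. The script was tested on simulated data. Gene identifiers and overlaps came from GENCODE, where 558 identifiers had no match, and promoters from RefSeq. The 10 genes and all lists were chosen with earlier results of these data known. Besides the 10 genes, the text names each list's called genes and its lowest p in each direction (a few of these are not reported here), ratio partners, and the 10 genes most correlated with the class II chains; low-count genes such as *Ms4a1* were added after their values were seen. The sources call the samples mice, so p-values measure the spread between them.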

Additional observations from a re-analysis of the deposited data

How the results depend on the processing

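The 3 genes called higher became 5 with upper-quartile factors, 5 without a low-count filter, 8 by the likelihood-ratio test and 8 by DESeq2, and 0 to 4 without 1 library; none was called lower under any alternative. Over all tested genes, 288 calls became 444 with library totals alone, 497 without the filter, 1568 by the likelihood-ratio test (53.1% higher, against 75.7%) and 1590 by DESeq2 (60.3% higher), and 0 to 816 without 1 library (816, of them 49.9% higher, when YAP2-5SA-∆C replicate 2 was omitted, and 0 when either wild type replicate 2, wild type replicate 3 or the third YAP2-5SA-∆C library was). No pairing of the libraries by replicate number was seen: deviations of same-numbered samples correlated at -0.343, -0.244 and -0.0624, and 0 of 6 libraries correlated best with its own number. With deviations taken from the mean of only 3 libraries per group, this check cannot exclude a pairing. With the replicate number as a block, 0 genes were called by the quasi-likelihood test, of which 2949 had an unadjusted p below 0.05, and 0 of the 10 genes, of which 8 did. The log2 fold change of *Epcam* was -0.05 to 0.07 without 1 library, and negative only without wild type replicate 3. The likelihood-ratio test called 8 class I, 8 dendritic cell development, 7 macrophage, 5 costimulation, 3 keratinocyte, 2 class II processing and 2 interferon-gamma genes higher and 5 simple epithelium genes lower, and DESeq2 called 9 macrophage, 7 class I, 7 dendritic cell development, 6 interferon-gamma, 4 class II processing, 4 costimulation, 4 keratinocyte and 2 dermis genes higher and 4 simple epithelium genes lower. By voom *Tap2* and *Krt8* were not called, and *Krt8* was not tested with at least 10 counts in every library; the cause was not tested. Depth limits *H2-Ob*, *H2-Oa*, *H2-Eb2*, *Ifng*, *Ccr6* and *Ccr7*.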

Other observations

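The costimulation and dendritic cell migration genes, through which antigen-presenting cells instruct and reach T cells, held 1 called gene of 10 tested, with 8 of the 10 fully above wild type and a median log2 fold change of 0.65. *Cd274*, which encodes the inhibitory ligand PD-L1, rose from 5.59 ± 0.668 to 9.30 ± 0.341 CPM (log2 fold change 0.73, SE 0.12, quasi-likelihood FDR 0.0437). Among the tested genes of this list, the largest fold changes were those of the chemokine genes *Ccl20*, at 1.21, 1.15 and 0.951 CPM in wild type and 2.00, 5.06 and 3.93 CPM in YAP2-5SA-∆C libraries (log2 fold change 1.70, SE 0.36, FDR 0.0576), and *Ccl22*, at 2.97, 2.77 and 3.14 against 4.73, 10.3 and 7.11 CPM (1.32, SE 0.28, FDR 0.0576). Both were highest in YAP2-5SA-∆C replicate 2, as were all 10 class II and Langerhans cell genes among transgenic libraries. The receptors *Ccr6*, which binds CCL20, and *Ccr7*, which guides dendritic cells to lymph nodes, were too low to be tested, with 5, 6 and 1 counts of *Ccr6* in wild type and 13, 17 and 17 in transgenic libraries, and 9, 5 and 3 counts of *Ccr7* against 10, 20 and 21.

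Over the 6 libraries, the 10 tested genes whose log2 CPM was most correlated with the mean of *H2-Aa*, *H2-Ab1*, *H2-Eb1* and *Cd74* were *Gab2*, *Sned1*, *Stat5a*, *Shmt2*, *Papss2*, *Rbms1*, *Plcg2*, *Zfp667*, *Bach1* and *Rab43*, with Pearson's r from 0.999 to 0.993. The libraries fall into 2 groups that differ in the mean itself, so any gene with a like difference between groups scores high, and with 15102 genes compared over 6 points these values are a description. *Sned1* was the one of these 10 called higher (log2 fold change 0.72, SE 0.12, FDR 0.0437). On the same measure *Ciita* had r = 0.992, *H2-DMa* 0.982, *Itgax* 0.962, *Cd207* 0.939, *H2-DMb1* 0.802 and *Epcam* -0.0643, beside 0.896 for *Ptprc* and 0.94 for *Krt14*.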
